A study of Mus musculus with 12 samples.

Results

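The kidneys of sick Gne knock-in mice were compared with those of wild-type mice across all genes with enough counts to be tested, with attention to nephron segments, transport, signalling and metabolism. The comparison uses 8 of the 12 libraries of the study, 4 per group, and 15589 of the 39171 genes in the count table. All mice were males of up to 3 months. The sick mice are homozygous for the M743T substitution in Gne, the gene of a bifunctional enzyme of sialic acid synthesis, and the submitters classed their state as sick. Counts per gene do not show the substitution itself. The other 4 libraries come from mice of the same knock-in genotype classed as healthy, and they enter the fit through the scaling, the filter on low counts and the shared estimate of spread. Sick and wild-type mice therefore differ in genotype and in state together, and the effects of these cannot be told apart here. Whole kidney was measured, so fewer cells of a type and less RNA per cell cannot be told apart in any value below.

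The nephron filters plasma at the glomerulus, whose podocytes hold the filter, and the tubule then recovers what the body keeps. The proximal tubule takes up most solutes in its S1, S2 and S3 parts, the thin and thick limbs of the loop of Henle build the medullary gradient, and the distal convoluted tubule, connecting tubule and collecting duct set the final sodium, potassium, calcium, acid and water content of urine. Each segment is known by a few transport genes, which makes bulk kidney RNA readable by segment.

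Total counts were 13189478 to 19493856 per wild-type and 10605546 to 22633684 per sick library. Levels are CPM, counts scaled by the effective library size, and are listed for mice 1 to 4 of a group, and log2 fold changes of sick against wild-type mice have their SE. A gene rose or fell where its adjusted p was below 0.05 in edgeR's quasi-likelihood test. The 8 markers of kidney identity had summed levels of 9254 to 10988 CPM in wild-type and 2019 to 5498 CPM in sick mice, and none was without counts in either group. In wild-type mouse 2 and sick mouse 3 long transcripts were low: for genes whose longest transcript exceeds 8000 bases the median log2 deviation from the group mean was -0.66 and -0.43, against 0.15 to 0.26 in the other wild-type and 0.08 to 0.17 in the other sick mice. Wild-type mouse 2 had no count for Kap, mt-Atp8, mt-Atp6, mt-Co3 and 1 clone-named gene that exceed 10 CPM in each other wild-type mouse, and wild-type mouse 1 had none for Azgp1. Without wild-type mouse 2 and sick mouse 3, an alternative chosen after seeing the data, 4427 genes rose and 4435 fell. In the comparison, genes with a longest transcript under 1000 bases had a median log2 fold change of -0.30 (-0.22 without those 2 mice) and those over 8000 bases of 0.17 (0.08).

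**Figure D1:**
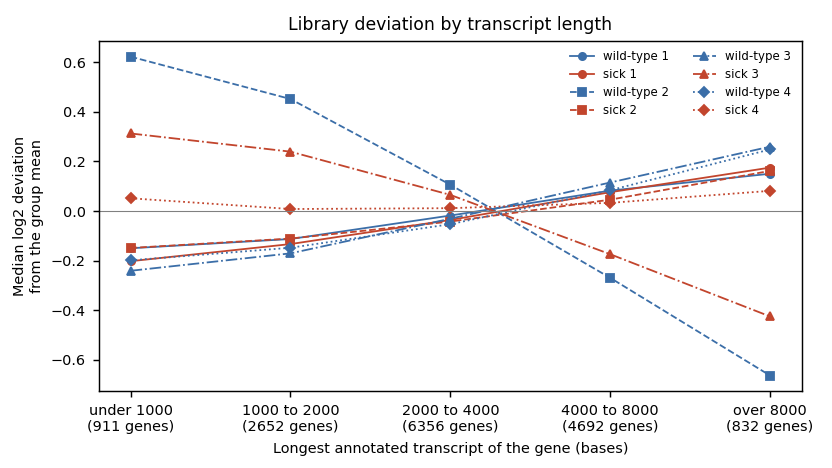
Median log2 deviation of each library from the mean of its group, by length of the longest annotated transcript in bases, for the 4 wild-type (blue) and 4 sick (red) libraries. Wild-type mouse 2 falls from 0.62 in the shortest to -0.66 in the longest class and sick mouse 3 from 0.31 to -0.43, while the other 6 libraries lie within 0.26 of zero.

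Of the genes tested, 4032 rose (25.9%) and 3901 fell (25.0%), so 50.9% were called. In 43.2% of genes the 4 sick mice lay apart from the 4 wild-type mice, above them in 22.7% and below them in 20.6%. At least 4-fold rises were called in 7.95% of genes and falls of that size in 3.53%. Each count of members below is read against these shares. The library was also less dominated by abundant genes in sick mice: 990 to 1263 genes made up 50% of its counts, against 399 to 492 genes in wild-type mice. Scaling by library totals alone shifts the median log2 fold change of all genes from 0.02 to 0.61 and each gene by about as much, after which 8420 genes rose and 1605 fell. Where that scaling moves a count of a list by over 1.5-fold and at least 2 genes, or changes the sign of its median, its values are given in parentheses as by library totals.

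**Figure D2:**
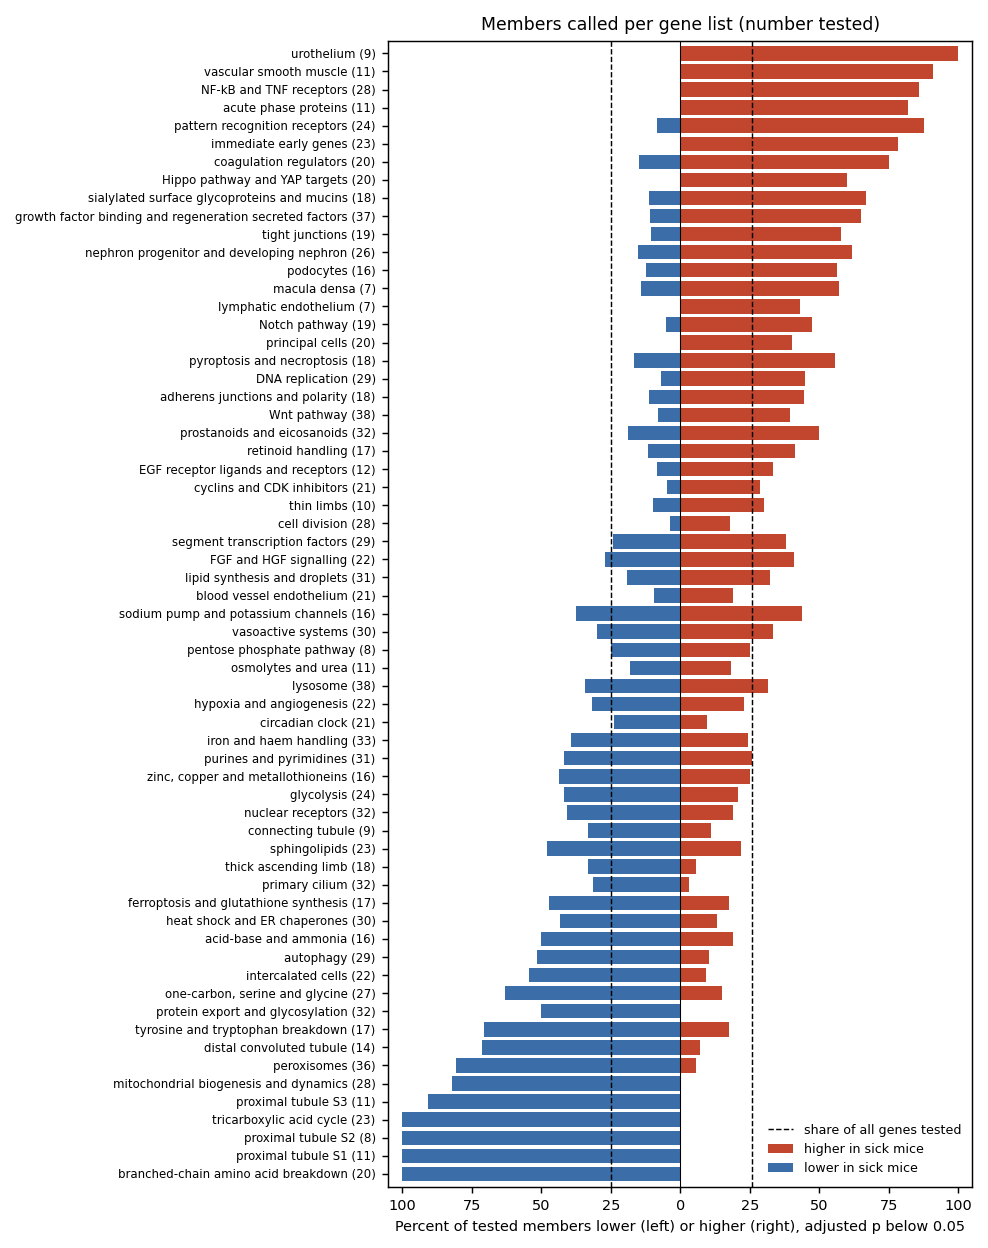
Percent of the tested members of each gene list that were lower (blue, left) or higher (red, right) in sick than in wild-type mice at an adjusted p below 0.05, with the number tested in parentheses. Dashed lines mark the share of all genes, 25.0% lower and 25.9% higher. Urothelial, smooth muscle and NF-kB genes stand at the top, and proximal tubule, branched-chain amino acid and citrate cycle genes at the bottom.

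Genes of all 3 parts of the proximal tubule were lower. In the S1 list 0 of 11 tested genes rose and 11 fell, at a median log2 fold change of -1.95. In the S2 list 0 of 8 tested genes rose and 8 fell, at a median log2 fold change of -2.74. In the S3 list 0 of 11 tested genes rose and 10 fell, at a median log2 fold change of -2.28. Slc7a13 was at 953, 998, 775 and 1290.2 CPM in wild-type and 1.95, 8.17, 27.4 and 30.8 CPM in sick mice (log2 fold change -5.89 ± 0.68, adjusted p = 2.32e-05), and this gene encodes the S3 carrier of aspartate, glutamate and cystine. Slc22a6 stood at 118, 99.8, 386 and 438 CPM in sick mice, against 1663, 1852, 1667 and 1971 CPM in wild-type mice (log2 fold change -2.78 ± 0.43, adjusted p = 1.80e-04). It encodes the organic anion transporter OAT1 of S2. Slc5a12 was at 611, 129.7, 753 and 604 CPM in wild-type and 137, 215, 150.0 and 128 CPM in sick mice (log2 fold change -1.73 ± 0.45, adjusted p = 0.00580). It takes up lactate in S1. The groups did not overlap in Slc7a13 and Slc22a6, whereas wild-type mouse 2 lay within the sick range of Slc5a12. Sick mice 1 and 2 had the lowest levels of Slc7a13 and Slc22a6. Among these carriers, the fold change moved by over 1.5-fold, to the log2 value given, for Slc7a13 (-6.67 in limma-voom).

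**Figure D3:**
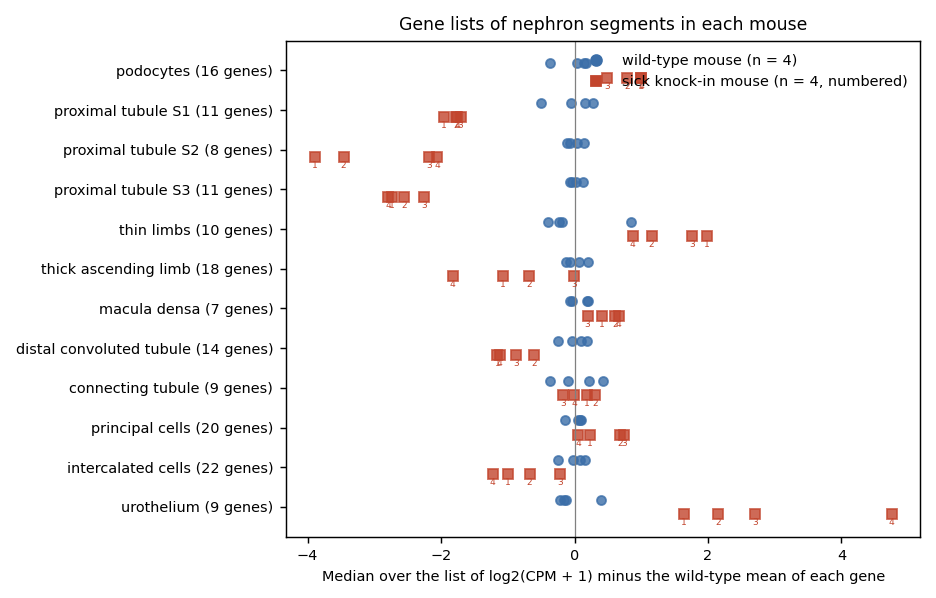
For each list of segment genes, the median over its genes of log2(CPM + 1) minus the wild-type mean of the gene, in each wild-type mouse (blue circles) and each sick mouse (red squares, numbered), with a pseudocount of 1. The 4 sick mice lie at -3.89 to -2.06 in proximal tubule S2, at -1.83 to 0.00 in the thick ascending limb, at 0.05 to 0.75 in principal cells and at 1.64 to 4.75 in urothelium.

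Thin limb genes rose at a share near the 25.9% of all genes, and fewer fell than the 25.0% of all genes. Across the list 3 of 10 tested genes rose and 1 fell (7 and 1 by library totals), at a median log2 fold change of 1.82. The counts were 6 and 1 without wild-type mouse 2 and 5 and 1 without wild-type mouse 2 and sick mouse 3. Aqp1, the water channel of the proximal tubule and descending thin limb, was at 979, 1091, 992 and 1201 CPM in wild-type and 526, 449.9, 669.6 and 352 CPM in sick mice (log2 fold change -1.09 ± 0.19, adjusted p = 4.92e-04). Bst1, a cell surface ADP-ribosyl cyclase, was at 3.40, 9.37, 2.60 and 3.13 CPM in wild-type and 54.1, 30.5, 32.8 and 10.3 CPM in sick mice (log2 fold change 2.77 ± 0.65, adjusted p = 0.00323). Slc14a2, the urea transporter of the inner medulla, was at 4.61, 12.3, 1.82 and 2.61 CPM in wild-type and 108, 17.9, 34.0 and 13.5 CPM in sick mice (log2 fold change 2.995 ± 1.24, adjusted p = 0.0589). All 4 sick mice exceeded the wild-type mice in Bst1 and Slc14a2, but sick mouse 1 alone was at 108 CPM for Slc14a2 and that gene did not pass. In the thin limb list, the fold change moved by over 1.5-fold, to the log2 value given, for Bst1 (3.38 without wild-type mouse 2 and 3.37 without wild-type mouse 2 and sick mouse 3). Slc14a2 passed with library totals alone (3.62, adjusted p = 0.0242), in the 8 libraries alone (2.995, adjusted p = 0.0113) and without wild-type mouse 2 (3.83, adjusted p = 0.0413). Relative to the wild-type mean on the log2(CPM + 1) scale, the list median was -0.40 to 0.84 in wild-type and 0.87 to 1.99 in sick mice. In healthy mice 1 to 4 it was -0.89, 0.26, 0.85 and -0.87, and Slc14a2 was at 0, 15.1, 21.1 and 0 CPM. The part of the medulla held by each sample was not tested.

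In the thick ascending limb, which takes up salt and dilutes the urine, 1 of 18 tested genes rose and 6 fell (2 and 3 by library totals), at a median log2 fold change of -0.84. The counts were 0 and 10 without sick mouse 3. Egf (ENSMUSG00000028017, chromosome 3 from 129677565 to 129755316 of GRCm38, reverse strand), the precursor of epidermal growth factor, had the largest fall there: it was at 1643, 886, 1566 and 1424 CPM in wild-type and 23.7, 95.3, 47.2 and 24.8 CPM in sick mice (log2 fold change -4.85 ± 0.45, adjusted p = 5.45e-06). Tmem207, a small membrane protein, was at 13.8, 15.3, 11.9 and 12.1 CPM in wild-type and 0.243, 1.33, 2.69 and 0.154 CPM in sick mice (log2 fold change -3.67 ± 0.81, adjusted p = 0.00233). The groups were far apart in both genes. The defining genes Umod and Slc12a1 did not pass. Umod, which encodes uromodulin, was at 2835, 3657, 2562 and 3229 CPM in wild-type and 741, 1710.5, 2639 and 265 CPM in sick mice (log2 fold change -1.20 ± 0.57, adjusted p = 0.0992). Slc12a1 stood at 425, 503, 975 and 119 CPM in sick mice, against 802, 645, 822 and 790.3 CPM in wild-type mice (log2 fold change -0.60 ± 0.56, adjusted p = 0.397). It encodes the salt carrier blocked by loop diuretics. The sick mice spread widely in both, from mouse 4 with the lowest to mouse 3 within or above the wild-type range. Cldn16 was at 9.55, 10.7, 8.49 and 7.70 CPM in wild-type and 9.28, 15.2, 29.3 and 4.62 CPM in sick mice (log2 fold change 0.67 ± 0.44, adjusted p = 0.220), a tight junction channel for magnesium and calcium, with sick mice 2 and 3 above and sick mouse 4 below all wild-type mice. In the thick limb, the fold change moved by over 1.5-fold, to the log2 value given, for Egf (-5.44 without sick mouse 2) and Tmem207 (-4.43 in limma-voom, -4.43 without sick mouse 3 and -4.34 without wild-type mouse 2 and sick mouse 3). Umod passed in the DESeq2 test (-1.22, adjusted p = 0.0426), in limma-voom (-1.63, adjusted p = 0.0422), without sick mouse 3 (-1.76, adjusted p = 0.0228) and without wild-type mouse 2 and sick mouse 3 (-1.67, adjusted p = 0.0441). Cldn16 passed with library totals alone (1.24, adjusted p = 0.0244) and without sick mouse 4 (0.97, adjusted p = 0.0431). Relative to the wild-type mean on the log2(CPM + 1) scale, the list median was -1.08, -0.68, -0.0015 and -1.83 in sick mice. In healthy mice 1 to 4 it was -0.86, 0.07, 0.15 and -1.14. There Umod was at 1428, 3181, 3861 and 1115 CPM, and Egf at 1117, 1234, 1371 and 1004 CPM. How much medulla each sample held is unstated in the labels, and its part in these values was not tested.

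The macula densa is the patch of tubule cells that senses salt and steers renin and filtration. In its list 4 of 7 tested genes rose and 1 fell, at a median log2 fold change of 0.60. Pappa2 stood at 37.8, 14.6, 12.3 and 28.3 CPM in sick mice, against 3.40, 2.004, 2.86 and 0.913 CPM in wild-type mice (log2 fold change 3.36 ± 0.51, adjusted p = 1.59e-04), and it encodes a protease that frees IGF from its binding proteins. Ptgs2, the inducible cyclooxygenase, was at 0.243, 0.0589, 0 and 0.0652 CPM in wild-type and 2.68, 3.59, 4.22 and 3.03 CPM in sick mice (log2 fold change 5.13 ± 0.57, adjusted p = 1.82e-05). The 4 sick mice lay above the 4 wild-type mice in both, although neither gene is expressed in the macula densa alone. Nos1, the neuronal nitric oxide synthase that marks these cells, was at 1.12002 to 1.39 CPM in wild-type and 1.23 to 1.76 CPM in sick mice (log2 fold change 0.23 ± 0.26, adjusted p = 0.484). Among macula densa genes, the fold change moved by over 1.5-fold, to the log2 value given, for Ptgs2 (6.01 without wild-type mouse 1). Nos1 passed with library totals alone (0.82, adjusted p = 0.0155).

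In the distal convoluted tubule, which takes up salt through a thiazide-sensitive carrier, 1 of 14 tested genes rose and 10 fell (1 and 5 by library totals), at a median log2 fold change of -0.94. Slc12a3 (ENSMUSG00000031766, chromosome 8 from 94329201 to 94366214 of GRCm38, forward strand) encodes that carrier and was at 416, 244, 426 and 339 CPM in wild-type and 60.2, 113, 63.8 and 83.2 CPM in sick mice (log2 fold change -2.15 ± 0.24, adjusted p = 1.90e-05). Wnk4 stood at 61.5, 89.2, 72.3 and 67.4 CPM in sick mice, against 155, 131, 159 and 105 CPM in wild-type mice (log2 fold change -0.92 ± 0.17, adjusted p = 6.48e-04). It encodes a kinase that regulates the carrier. Slc16a7, a monocarboxylate transporter, was at 57.7, 47.7, 75.8 and 49.0 CPM in wild-type and at 11.4, 12.1, 13.1 and 11.5 CPM in sick mice (log2 fold change -2.26 ± 0.23, adjusted p = 1.05e-05). Every sick mouse was below every wild-type mouse in these 3 genes. Trpm6, the magnesium channel of the segment, was at 7.70 to 16.9 CPM in wild-type and 8.06 to 17.8 CPM in sick mice and did not pass (log2 fold change -0.05 ± 0.30, adjusted p = 0.909). The call on Wnk4 was lost with library totals alone (-0.34, adjusted p = 0.103).

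The connecting tubule list had mixed members, and 1 of 9 tested genes rose and 3 fell (4 and 1 by library totals), at a median log2 fold change of 0.15. Its calcium-binding proteins were lower. Calb1 was at 423, 265, 336 and 185 CPM in wild-type and 107, 86.7, 104 and 85.6 CPM in sick mice (log2 fold change -1.66 ± 0.27, adjusted p = 2.88e-04). It encodes calbindin D28k. S100g, calbindin D9k, was at 178, 238, 146 and 84.0 CPM in wild-type and 69.9, 42.5, 94.0 and 38.7 CPM in sick mice (log2 fold change -1.40 ± 0.36, adjusted p = 0.00606). The groups overlapped in S100g, where sick mouse 3 exceeded wild-type mouse 4. Trpv5, the luminal calcium channel of the same cells, was at 14.5, 3.65, 14.0 and 12.2 CPM in wild-type and 24.7, 21.3, 17.9 and 16.4 CPM in sick mice (log2 fold change 0.86 ± 0.47, adjusted p = 0.142), so the sick mice were all above the wild-type mice although the gene did not pass. The call on S100g was lost with library totals alone (-0.82, adjusted p = 0.0589). Trpv5 passed with library totals alone (1.46, adjusted p = 0.0144).

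Principal cells of the collecting duct reabsorb water and sodium, and their list leaned upward: 8 of 20 tested genes rose and 0 fell (13 and 0 by library totals), at a median log2 fold change of 0.29. Aqp2 (ENSMUSG00000023013, chromosome 15 from 99579055 to 99584547 of GRCm38, forward strand), the vasopressin-regulated water channel, was at 89.8, 184, 69.0 and 95.4 CPM in wild-type and 266, 419, 699 and 295 CPM in sick mice (log2 fold change 1.94 ± 0.44, adjusted p = 0.00270). A larger rise was in a gene shared with other epithelia. Krt18 was at 7.36, 16.8, 8.58 and 9.39 CPM in wild-type and 111, 105, 107 and 103 CPM in sick mice (log2 fold change 3.32 ± 0.37, adjusted p = 1.88e-05). It encodes a keratin of simple epithelia. In both genes the lowest sick mouse was above the highest wild-type mouse. The vasopressin receptor gene Avpr2 was at 10.4 to 18.6 CPM in wild-type and 13.7 to 24.3 CPM in sick mice (log2 fold change 0.44 ± 0.28, adjusted p = 0.204), and Scnn1g, a subunit of the epithelial sodium channel, at 25.2 to 40.5 CPM in wild-type and 25.1 to 43.7 CPM in sick mice (log2 fold change 0.14 ± 0.18, adjusted p = 0.537). Avpr2 passed with library totals alone (1.03, adjusted p = 0.00817). Scnn1g passed with library totals alone (0.73, adjusted p = 0.00346).

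Intercalated cells secrete acid or bicarbonate, and their list leaned downward: 2 of 22 tested genes rose and 12 fell (7 and 6 by library totals), at a median log2 fold change of -0.88. The carriers that define the acid-secreting and the base-secreting type were both lower. Slc4a1 (ENSMUSG00000006574, chromosome 11 from 102348824 to 102366203 of GRCm38, reverse strand), the basolateral anion exchanger AE1 of acid-secreting cells, was at 22.7, 25.3, 24.5 and 21.3 CPM in wild-type and 3.41, 4.35, 9.29 and 1.64 CPM in sick mice (log2 fold change -2.36 ± 0.47, adjusted p = 0.00115). Slc26a4 stood at 8.31, 20.4, 18.3 and 16.3 CPM in sick mice, against 56.7, 34.8, 46.1 and 42.3 CPM in wild-type mice (log2 fold change -1.51 ± 0.26, adjusted p = 4.28e-04). It encodes the exchanger pendrin of base-secreting cells. Neither gene had an overlap between the groups. Slc4a1 is also a red blood cell gene, and Hba-a1, of haemoglobin, was at 19.0, 98.5, 47.2 and 15.2 CPM in wild-type and 3.32, 51.2, 51.9 and 27.6 CPM in sick mice (log2 fold change -0.43 ± 0.77, adjusted p = 0.669). The red cell list summed to 90.3 to 399 CPM in wild-type and 18.9 to 215 CPM in sick mice, with 0 of its 7 tested genes higher and 2 lower and none without counts, and its part in the fall of Slc4a1 was not tested. Foxi1, the transcription factor of the lineage, was at 12.98 to 20.9 CPM in wild-type and 15.3 to 31.3 CPM in sick mice (log2 fold change 0.37 ± 0.23, adjusted p = 0.205), and Atp6v1b1, a proton pump subunit, at 39.6 to 57.4 CPM in wild-type and 19.1 to 50.1 CPM in sick mice (log2 fold change -0.46 ± 0.24, adjusted p = 0.127). Kit, a receptor kinase expressed there and in mast cells, rose from 12.9 ± 4.06 to 31.3 ± 7.47 CPM (SD, n = 4 each) (log2 fold change 1.28 ± 0.25, adjusted p = 0.00110). Foxi1 passed with library totals alone (0.95, adjusted p = 0.00366). Atp6v1b1 passed without sick mouse 3 (-0.65, adjusted p = 0.0341) and without wild-type mouse 2 and sick mouse 3 (-0.67, adjusted p = 0.0445).

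Urothelium lines the renal pelvis. In its list 9 of 9 tested genes rose and 0 fell, at a median log2 fold change of 5.22. Upk3a, which encodes a uroplakin of the luminal plaque, was at 0, 0.884, 0.260 and 0.130 CPM in wild-type and 5.88, 8.47, 9.82 and 38.2 CPM in sick mice (log2 fold change 5.48 ± 1.38, adjusted p = 0.00517). Krt5 was at 0.162, 0.825, 0.173 and 0.0652 CPM in wild-type and 5.51, 4.68, 7.29 and 44.9 CPM in sick mice (log2 fold change 5.54 ± 1.36, adjusted p = 0.00435). It encodes the keratin of basal cells. Upk1b stood at 7.01, 18.0, 15.4 and 56.1 CPM in sick mice, against 0.405, 1.002, 0.260 and 0.783 CPM in wild-type mice (log2 fold change 5.22 ± 1.23, adjusted p = 0.00346). All 4 sick mice were above all wild-type mice in these 3 genes, with sick mouse 4 well above the other sick mice in Upk3a and Krt5 and wild-type mouse 2 the highest of its group. None of the 9 genes was without counts in either group, and the list summed to 60.2 to 116 CPM in wild-type and 192 to 461 CPM in sick mice. Healthy mouse 3 also stood high, with a list median of 3.27 above the wild-type mean on the log2(CPM + 1) scale, while the other healthy mice were at -0.18 to 0.26. How much pelvis each sample held is unstated in the labels, and its part in these values was not tested. In the urothelial list, the fold change moved by over 1.5-fold, to the log2 value given, for Upk3a (4.53 without sick mouse 4, 6.84 without wild-type mouse 2 and 7.01 without wild-type mouse 2 and sick mouse 3), Krt5 (4.13 without sick mouse 4, 6.84 without wild-type mouse 2 and 7.08 without wild-type mouse 2 and sick mouse 3) and Upk1b (4.39 without sick mouse 4).

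Podocyte genes went separate ways. Across their list 9 of 16 tested genes rose and 2 fell (10 and 0 by library totals), at a median log2 fold change of 0.98. The counts were 8 and 4 without sick mouse 4. Nphs1, for the slit diaphragm protein nephrin, did not pass: it was at 20.5, 15.03, 21.9 and 18.3 CPM in wild-type and 8.60, 11.2, 7.21 and 22.1 CPM in sick mice (log2 fold change -0.62 ± 0.29, adjusted p = 0.0942). Sick mouse 4 stood above all wild-type mice, and the other sick mice below them. The transcription factor genes Wt1 and Tcf21 were higher. Wt1 stood at 13.4, 11.8, 10.9 and 16.3 CPM in sick mice, against 7.77, 4.89, 6.85 and 6.20 CPM in wild-type mice (log2 fold change 1.03 ± 0.21, adjusted p = 0.00112). Tcf21 was at 9.95, 12.4, 9.10 and 5.09 CPM in wild-type and 36.4, 30.4, 21.9 and 35.4 CPM in sick mice (log2 fold change 1.77 ± 0.39, adjusted p = 0.00230). Kirrel, which encodes a partner of nephrin that other cells also express, was at 14.8, 10.3, 15.9 and 14.1 CPM in wild-type and 109, 59.1, 37.1 and 61.6 CPM in sick mice (log2 fold change 2.28 ± 0.28, adjusted p = 3.49e-05), with no overlap. Nphs1 passed in limma-voom (-0.72, adjusted p = 0.0472) and without sick mouse 4 (-1.06, adjusted p = 0.00116).

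**Figure D4:**
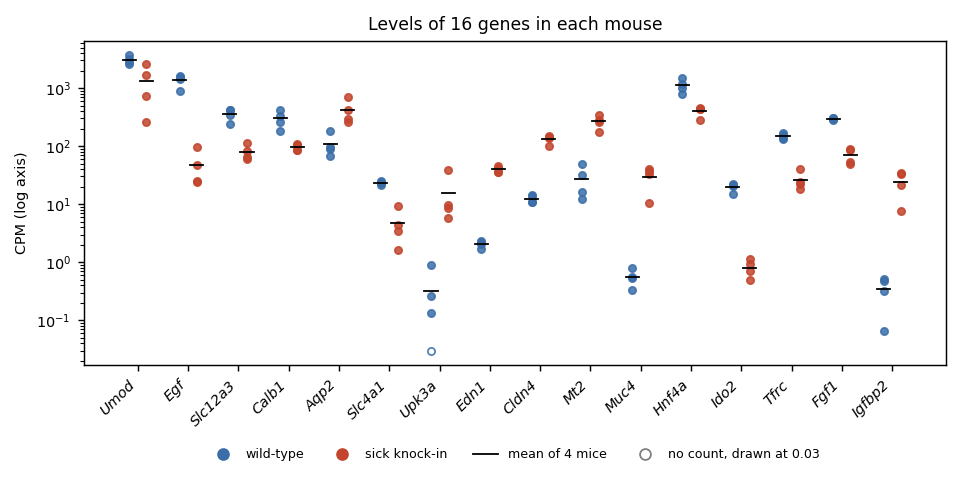
CPM on a log axis of 16 genes in each wild-type (blue) and sick (red) mouse, with the mean of the 4 mice as a bar and a library without counts drawn open at 0.03. Egf, Slc12a3, Slc4a1, Ido2, Tfrc and Fgf1 lie lower and Aqp2, Edn1, Cldn4, Mt2, Muc4 and Igfbp2 higher in all sick mice, while the sick mice reach into the wild-type range of Umod.

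Blood vessel endothelium had few called genes with TMM scaling: 4 of 21 tested genes rose and 2 fell (12 and 0 by library totals), at a median log2 fold change of -0.03 (0.58 by library totals). Pecam1 and Cdh5, pan-endothelial junction genes, were at 60.4 to 79.8 CPM in wild-type and 62.5 to 113 CPM in sick mice (log2 fold change 0.25 ± 0.16, adjusted p = 0.231) and at 29.6 to 56.3 CPM in wild-type and 28.7 to 53.1 CPM in sick mice (log2 fold change -0.02 ± 0.24, adjusted p = 0.939). Vwf stood at 29.3, 36.4, 12.9 and 22.2 CPM in sick mice, against 2.10, 3.596, 3.64 and 2.74 CPM in wild-type mice (log2 fold change 3.06 ± 0.42, adjusted p = 8.30e-05). It encodes the clotting glycoprotein of larger vessels. Kdr was at 131, 68.3, 139.6 and 94.1 CPM in wild-type and 55.7, 51.8, 44.7 and 55.6 CPM in sick mice (log2 fold change -1.06 ± 0.21, adjusted p = 0.00106). It encodes the receptor for vascular endothelial growth factor A. These 2 genes moved in opposite directions, each without overlap. In the lymphatic list 3 of 7 tested genes rose and 0 fell, at a median log2 fold change of 1.86. Lyve1, a hyaluronan receptor, was at 0.324, 0.118, 0.607 and 2.94 CPM in wild-type and 8.47, 10.4, 2.99 and 11.2 CPM in sick mice (log2 fold change 3.03 ± 0.83, adjusted p = 0.00831) and Prox1, the lineage factor, at 4.07 to 8.06 CPM in wild-type and 1.05 to 4.65 CPM in sick mice (log2 fold change -1.122 ± 0.60, adjusted p = 0.137). Lyve1 and Pdpn, which was at 2.41 to 5.01 CPM in wild-type and 16.4 to 20.1 CPM in sick mice (log2 fold change 2.45 ± 0.24, adjusted p = 8.18e-06), are also expressed outside lymphatics. For endothelial genes, the fold change moved by over 1.5-fold, to the log2 value given, for Lyve1 (3.82 in limma-voom and 4.62 without wild-type mouse 4). The call on Kdr was lost with library totals alone (-0.47, adjusted p = 0.0756). Pecam1 passed with library totals alone (0.85, adjusted p = 0.00181).

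Contractile genes of vascular smooth muscle were higher: 10 of 11 tested genes rose and 0 fell, at a median log2 fold change of 1.30. Myh11 stood at 56.0, 143, 60.6 and 258 CPM in sick mice, against 35.5, 27.1, 44.8 and 23.4 CPM in wild-type mice (log2 fold change 1.98 ± 0.50, adjusted p = 0.00509). It encodes the smooth muscle myosin. Tagln was at 36.6, 68.3, 40.0 and 52.5 CPM in wild-type and 404, 199.8, 223 and 398 CPM in sick mice (log2 fold change 2.63 ± 0.31, adjusted p = 2.86e-05). It encodes an actin-binding protein also made by myofibroblasts. No wild-type mouse reached the sick range of either gene. Sick mouse 4 had the highest Myh11, as it had the highest urothelial levels, and mice 1 and 3 of the sick group lay closest to wild-type. In 6 of the 11 genes all sick mice lay above all wild-type mice. The list median on the log2(CPM + 1) scale was -0.37 to 0.49 in wild-type and 0.89 to 1.97 in sick mice. It was 0.91 in healthy mouse 3, which was also high in the urothelial list, and -0.28 to 0.37 in the other healthy mice. The part of the pelvis held by each sample was not tested.

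Tight junction genes shifted within the family. In their list 11 of 19 tested genes rose and 2 fell (15 and 0 by library totals), at a median log2 fold change of 0.77. Cldn4 (ENSMUSG00000047501, chromosome 5 from 134945119 to 134946934 of GRCm38, reverse strand), a claudin of tight, distal epithelia, was at 10.8, 14.3, 11.1 and 13.7 CPM in wild-type and 147, 146, 137 and 101.3 CPM in sick mice (log2 fold change 3.41 ± 0.43, adjusted p = 3.82e-05). Cldn2, the pore-forming claudin of the proximal tubule, was at 742, 707, 851 and 738 CPM in wild-type and 329, 492, 456 and 387 CPM in sick mice (log2 fold change -0.87 ± 0.17, adjusted p = 0.00109). The groups were separate in both, in opposite directions. Tjp1 was at 74.2, 31.7, 81.4 and 77.0 CPM in wild-type and 160.3, 127, 72.4 and 124 CPM in sick mice (log2 fold change 0.87 ± 0.28, adjusted p = 0.0189), the scaffold ZO-1, with sick mouse 3 inside the wild-type range. Ocln, for occludin, was at 33.6 to 47.7 CPM in wild-type and 26.0 to 45.4 CPM in sick mice (log2 fold change -0.15 ± 0.18, adjusted p = 0.522). The call on Cldn2 was lost with library totals alone (-0.28, adjusted p = 0.113). The call on Tjp1 was lost without sick mouse 1 (0.71, adjusted p = 0.0636).

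Cadherins, the adhesion molecules of adherens junctions, changed in both directions. Of the adherens junction and polarity genes, 8 of 18 tested genes rose and 2 fell (13 and 0 by library totals), at a median log2 fold change of 0.30. The counts were 5 and 1 without sick mouse 1, 5 and 2 without sick mouse 2, 5 and 2 without wild-type mouse 1 and 5 and 3 without wild-type mouse 2. Cdh6 stood at 31.3, 22.1, 8.13 and 9.25 CPM in sick mice, against 2.35, 0.531, 0.607 and 2.41 CPM in wild-type mice (log2 fold change 3.59 ± 0.59, adjusted p = 2.81e-04). It encodes a cadherin of the developing nephron. Cdh3 was at 6.07, 5.42, 5.37 and 3.20 CPM in wild-type and 64.0, 34.1, 44.4 and 23.5 CPM in sick mice (log2 fold change 3.05 ± 0.33, adjusted p = 1.41e-05), P-cadherin. Cdh16, the kidney-specific cadherin of differentiated tubules, was at 1241, 1391, 1128 and 1047 CPM in wild-type and 533, 805, 807 and 430.2 CPM in sick mice (log2 fold change -0.90 ± 0.21, adjusted p = 0.00302). The first 2 rose and the last fell without overlap, and Cdh1, E-cadherin, rose from 159 ± 19.1 to 242 ± 50.8 CPM (SD, n = 4 each) (log2 fold change 0.61 ± 0.16, adjusted p = 0.00739). The call on Cdh16 was lost with library totals alone (-0.32, adjusted p = 0.187).

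Genes of the primary cilium, the sensory organelle of tubule cells, leaned downward except by library totals: 1 of 32 tested genes rose and 10 fell (9 and 2 by library totals), at a median log2 fold change of -0.30 (0.29 by library totals). The counts were 2 and 16 without wild-type mouse 2 and 3 and 8 with upper-quartile scaling. Ift122 was at 72.0, 57.4, 78.5 and 61.5 CPM in wild-type and 27.8, 23.6, 29.5 and 22.1 CPM in sick mice (log2 fold change -1.39 ± 0.15, adjusted p = 1.65e-05). It encodes a part of the retrograde transport complex. Ift88 stood at 14.6, 14.1, 14.96 and 14.9 CPM in sick mice, against 24.8, 19.8, 26.7 and 23.2 CPM in wild-type mice (log2 fold change -0.69 ± 0.12, adjusted p = 3.93e-04). It encodes a part of the anterograde complex. The sick mice were below the wild-type mice in both. Pkd1, the gene of polycystin 1, went up, at 40.7, 13.2, 43.7 and 50.3 CPM in wild-type and 108, 88.9, 42.9 and 108 CPM in sick mice (log2 fold change 1.24 ± 0.36, adjusted p = 0.0113), with the lowest value of each group in wild-type mouse 2 and sick mouse 3, the libraries low in long transcripts. Pkhd1, of fibrocystin, was at 103 to 248 CPM in wild-type and 147 to 207 CPM in sick mice (log2 fold change -0.18 ± 0.24, adjusted p = 0.543). The call on Ift88 was lost with library totals alone (-0.10, adjusted p = 0.541). Pkhd1 passed without wild-type mouse 2 (-0.41, adjusted p = 0.0297).

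Genes of osmolyte handling, by which medullary cells withstand salt and urea, were near the background, and 2 of 11 tested genes rose and 2 fell (4 and 0 by library totals), at a median log2 fold change of -0.48 (0.11 by library totals). Slc5a3, the inositol carrier, was at 97.7, 126, 108 and 318 CPM in wild-type and 59.9, 105, 120.0 and 57.7 CPM in sick mice (log2 fold change -0.92 ± 0.44, adjusted p = 0.0963), and wild-type mouse 4 alone was at 318 CPM. Nfat5, the transcription factor of the tonicity response, was at 79.0, 40.0, 100.9 and 100.7 CPM in wild-type and 203, 165, 88.2 and 158 CPM in sick mice (log2 fold change 0.94 ± 0.28, adjusted p = 0.0139). Sick mouse 3 lay within the wild-type range of Nfat5. Sgk1, an aldosterone-induced kinase, was at 104, 65.6, 79.9 and 81.3 CPM in wild-type and 145, 248.9, 291 and 246 CPM in sick mice (log2 fold change 1.49 ± 0.26, adjusted p = 4.18e-04), without overlap.

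The sodium pump drives tubular transport. Of pump and potassium channel genes, 7 of 16 tested genes rose and 6 fell (8 and 4 by library totals), at a median log2 fold change of -0.10 (0.49 by library totals). Kcnj15 was at 1326, 866, 1763 and 1606 CPM in wild-type and 328, 527, 429 and 435 CPM in sick mice (log2 fold change -1.69 ± 0.28, adjusted p = 2.83e-04). It encodes a potassium channel of the proximal tubule. Fxyd5 stood at 65.7, 40.2, 47.3 and 68.2 CPM in sick mice, against 7.52, 15.1, 7.97 and 10.8 CPM in wild-type mice (log2 fold change 2.41 ± 0.25, adjusted p = 1.13e-05). It encodes a pump modulator also called dysadherin. Kcnj15 and Fxyd5 separated the groups in opposite directions.

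In the acid-base and ammonia list 3 of 16 tested genes rose and 8 fell (5 and 5 by library totals), at a median log2 fold change of -0.73. Car4 was at 201, 274, 204 and 217 CPM in wild-type and 11.1, 15.3, 32.2 and 24.1 CPM in sick mice (log2 fold change -3.44 ± 0.29, adjusted p = 3.20e-06). It encodes the carbonic anhydrase of the proximal luminal membrane. Slc9a3 stood at 16.1, 27.8, 15.3 and 16.6 CPM in sick mice, against 83.0, 15.9, 79.5 and 78.0 CPM in wild-type mice (log2 fold change -1.75 ± 0.41, adjusted p = 0.00346). It encodes the sodium-proton exchanger NHE3. Car4 was separate, while wild-type mouse 2 had Slc9a3 as low as the sick mice. Slc34a2, a phosphate carrier of lung and gut, rose from 6.05 ± 1.59 to 47.3 ± 26.4 CPM (SD, n = 4 each) (log2 fold change 2.97 ± 0.49, adjusted p = 2.95e-04).

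Vasoactive genes were called at shares near those of all genes, 25.9% higher and 25.0% lower. In their list 10 of 30 tested genes rose and 9 fell (16 and 4 by library totals), at a median log2 fold change of 0.22. Edn1 (ENSMUSG00000021367, chromosome 13 from 42301476 to 42307990 of GRCm38, forward strand), the precursor of the vasoconstrictor endothelin 1, was at 2.02, 2.24, 2.34 and 1.70 CPM in wild-type and 41.9, 45.5, 35.8 and 35.4 CPM in sick mice (log2 fold change 4.25 ± 0.19, adjusted p = 2.39e-07). Ace, the angiotensin-converting enzyme, was at 415, 389.8, 375 and 516 CPM in wild-type and 54.6, 69.3, 82.8 and 80.9 CPM in sick mice (log2 fold change -2.56 ± 0.17, adjusted p = 1.26e-06). Within each group the mice were close together for Edn1, and the groups were far apart for both genes. Ramp1 stood at 5.07, 4.08, 4.76 and 4.52 CPM in sick mice, against 0.485, 0.825, 0.693 and 0.261 CPM in wild-type mice (log2 fold change 3.01 ± 0.34, adjusted p = 2.05e-05). It encodes a partner of the receptor for the vasodilator CGRP. In the prostanoid and eicosanoid list 16 of 32 tested genes rose and 6 fell, at a median log2 fold change of 0.89. Ptgs1, the constitutive cyclooxygenase, was at 15.5 to 19.8 CPM in wild-type and 33.9 to 41.3 CPM in sick mice (log2 fold change 1.18 ± 0.13, adjusted p = 1.76e-05), and Cyp2j5, an arachidonic acid epoxygenase of the proximal tubule, at 1765 to 2073 CPM in wild-type and 231 to 629.8 CPM in sick mice (log2 fold change -2.27 ± 0.27, adjusted p = 2.64e-05).

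Ligands of the EGF receptor did not move as one. Beside the fall of Egf, Areg, the gene of amphiregulin, was at 0.0809, 0.0589, 0 and 0 CPM in wild-type and 0.649, 1.56, 1.53 and 0.822 CPM in sick mice (log2 fold change 4.75 ± 0.80, adjusted p = 3.54e-04), a rise at a low level. Egfr was at 63.0 to 148 CPM in wild-type and 54.9 to 115 CPM in sick mice (log2 fold change -0.17 ± 0.28, adjusted p = 0.643) and Hbegf, a heparin-binding ligand, at 16.2 to 35.2 CPM in wild-type and 24.0 to 27.9 CPM in sick mice (log2 fold change 0.12 ± 0.25, adjusted p = 0.710). Over the list, 4 of 12 tested genes rose and 1 fell, at a median log2 fold change of 0.01. Of the fibroblast growth factor genes, Fgf1 was at 302, 303, 287 and 295 CPM in wild-type and 49.5, 53.2, 86.1 and 89.8 CPM in sick mice (log2 fold change -2.09 ± 0.24, adjusted p = 2.22e-05). The receptor genes separated in opposite directions, with Fgfr2 at 9.003 to 12.6 CPM in wild-type and 21.0 to 35.9 CPM in sick mice (log2 fold change 1.42 ± 0.22, adjusted p = 2.08e-04) and Fgfr4, a receptor of the proximal tubule, at 60.2 to 71.2 CPM in wild-type and 20.3 to 26.3 CPM in sick mice (log2 fold change -1.45 ± 0.12, adjusted p = 3.36e-06). In that list 9 of 22 tested genes rose and 6 fell (14 and 3 by library totals), at a median log2 fold change of 0.41. Among growth factor genes, the fold change moved by over 1.5-fold, to the log2 value given, for Areg (4.11 in limma-voom). Hbegf passed with library totals alone (0.73, adjusted p = 0.0207).

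Wnt pathway genes, which act in nephron formation and repair, leaned upward: 15 of 38 tested genes rose and 3 fell (26 and 2 by library totals), at a median log2 fold change of 0.77. The counts were 16 and 5 without wild-type mouse 2. Wnt4, a ligand that turns mesenchyme to epithelium in the embryonic kidney, was at 0.890, 1.12002, 0.433 and 1.44 CPM in wild-type and 9.89, 12.2, 4.37 and 20.04 CPM in sick mice (log2 fold change 3.55 ± 0.49, adjusted p = 7.86e-05). Axin2 stood at 10.3, 4.68, 5.68 and 9.04 CPM in sick mice, against 0.971, 0.943, 1.56 and 0.979 CPM in wild-type mice (log2 fold change 2.74 ± 0.50, adjusted p = 5.96e-04). It is a feedback target of the pathway. Nkd2, another feedback inhibitor, was at 1.46, 1.53, 0.693 and 1.17 CPM in wild-type and 49.3, 6.57, 5.22 and 21.3 CPM in sick mice (log2 fold change 4.06 ± 0.67, adjusted p = 3.12e-04). The groups did not overlap in these genes, and sick mouse 1 stood highest for Nkd2 and Axin2. Notum, a secreted enzyme that inactivates Wnt ligands, went the other way, at 28.2, 32.8, 26.3 and 14.8 CPM in wild-type and 3.12, 4.55, 4.83 and 3.39 CPM in sick mice (log2 fold change -2.69 ± 0.24, adjusted p = 4.49e-06). In the Wnt list, the fold change moved by over 1.5-fold, to the log2 value given, for Nkd2 (3.16 without sick mouse 1).

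In the Notch list 9 of 19 tested genes rose and 1 fell (15 and 0 by library totals), at a median log2 fold change of 0.70. Notch3 was at 24.4, 9.25, 21.8 and 20.8 CPM in wild-type and 94.2, 63.0, 29.5 and 68.7 CPM in sick mice (log2 fold change 1.75 ± 0.34, adjusted p = 9.84e-04). It encodes the receptor of mural cells. Jag1 stood at 54.5, 29.3, 27.9 and 41.7 CPM in sick mice, against 23.2, 14.1, 23.2 and 20.2 CPM in wild-type mice (log2 fold change 0.93 ± 0.25, adjusted p = 0.00727). It encodes a ligand. Both were higher in every sick mouse, while Hes1, a direct target, was at 14.97 to 30.5 CPM in wild-type and 17.7 to 31.1 CPM in sick mice (log2 fold change 0.21 ± 0.23, adjusted p = 0.470). In the Hippo list, of the growth-restraining kinases, the co-activator YAP and its targets, 12 of 20 tested genes rose and 0 fell (20 and 0 by library totals), at a median log2 fold change of 0.72. The co-activator gene Yap1 was at 64.7 to 99.5 CPM in wild-type and 77.0 to 93.0 CPM in sick mice (log2 fold change 0.08 ± 0.13, adjusted p = 0.629). Its targets Ctgf and Ankrd1 were higher: Ctgf, a matricellular growth factor, was at 149, 109, 67.2 and 208 CPM in wild-type and 966, 587, 604 and 896 CPM in sick mice (log2 fold change 2.52 ± 0.39, adjusted p = 1.98e-04), and Ankrd1 was at 0.587 to 1.56 CPM in wild-type and 13.05 to 37.5 CPM in sick mice (log2 fold change 4.17 ± 0.50, adjusted p = 2.91e-05). Hes1 passed with library totals alone (0.81, adjusted p = 0.0114). Yap1 passed with library totals alone (0.68, adjusted p = 0.00124).

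NF-kB is the transcription factor family that answers tumour necrosis factor and microbial signals. Among NF-kB and TNF receptor genes 24 of 28 tested genes rose and 0 fell, at a median log2 fold change of 1.52. Relb was at 4.37, 7.37, 4.94 and 7.50 CPM in wild-type and 24.1, 21.6, 20.6 and 24.3 CPM in sick mice (log2 fold change 1.90 ± 0.19, adjusted p = 8.47e-06). It encodes a subunit of the non-canonical arm. Nfkbiz stood at 38.8, 36.4, 29.4 and 37.4 CPM in sick mice, against 6.07, 4.89, 4.33 and 6.65 CPM in wild-type mice (log2 fold change 2.69 ± 0.26, adjusted p = 7.14e-06). It encodes an inducible nuclear co-regulator. Among pattern recognition receptors 21 of 24 tested genes rose and 2 fell (23 and 0 by library totals), at a median log2 fold change of 2.04. Cd14, the lipopolysaccharide co-receptor, was at 10.9, 15.7, 10.8 and 14.9 CPM in wild-type and 155, 118, 141 and 153 CPM in sick mice (log2 fold change 3.43 ± 0.36, adjusted p = 1.14e-05), and Tlr2 at 2.08 to 3.39 CPM in wild-type and 19.3 to 28.1 CPM in sick mice (log2 fold change 3.004 ± 0.19, adjusted p = 1.12e-06). Every sick mouse exceeded every wild-type mouse in these 4 genes. Macrophage markers moved with these lists, with 10 of 10 higher and summed levels of 121 to 239 CPM in wild-type and 767 to 1606 CPM in sick mice. T cell markers, 7 of 7 higher, summed to 2.53 to 5.55 and 8.07 to 28.7 CPM, and no marker of either list was without counts in a group. The part of these cells in the rises was not tested.

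Genes of inflammatory cell death were higher in part. In the pyroptosis and necroptosis list 10 of 18 tested genes rose and 3 fell (14 and 1 by library totals), at a median log2 fold change of 1.29. Gsdmd, the pore protein of pyroptosis, was at 3.16, 5.95, 2.95 and 2.28 CPM in wild-type and 14.7, 9.59, 15.5 and 17.5 CPM in sick mice (log2 fold change 1.98 ± 0.29, adjusted p = 1.11e-04). Ripk3 stood at 7.34, 4.68, 4.45 and 5.29 CPM in sick mice, against 0.890, 1.30, 0.953 and 2.15 CPM in wild-type mice (log2 fold change 2.02 ± 0.30, adjusted p = 1.47e-04). It encodes the necroptosis kinase. Nlrp6, an inflammasome sensor of epithelia, fell, at 143, 157, 163 and 97.9 CPM in wild-type and 19.3, 34.5, 52.0 and 28.0 CPM in sick mice (log2 fold change -2.07 ± 0.28, adjusted p = 6.14e-05). All 3 were without overlap. Of ferroptosis and glutathione genes, 3 of 17 tested genes rose and 8 fell (5 and 3 by library totals), at a median log2 fold change of -0.43 (0.15 by library totals). The counts were 3 and 5 with upper-quartile scaling. Acsl4 was at 53.8, 37.0, 51.2 and 51.1 CPM in wild-type and 148, 159, 133 and 131 CPM in sick mice (log2 fold change 1.56 ± 0.21, adjusted p = 7.66e-05). It encodes an enzyme that makes membranes prone to lipid peroxidation. Gss, glutathione synthetase, was at 368, 695, 349 and 362 CPM in wild-type and 70.3, 109.6, 205 and 96.9 CPM in sick mice (log2 fold change -1.88 ± 0.32, adjusted p = 3.47e-04), and so moved opposite to Acsl4.

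Acute phase proteins are made in bulk by the liver under inflammation and also by injured epithelia. In their list 9 of 11 tested genes rose and 0 fell, at a median log2 fold change of 3.24. Serpina3n was at 2.18, 2.53, 1.47 and 7.24 CPM in wild-type and 50.7, 157, 118 and 349.8 CPM in sick mice (log2 fold change 5.63 ± 0.80, adjusted p = 9.77e-05). It encodes a protease inhibitor. Itih4 stood at 1.95, 15.1, 3.30 and 27.7 CPM in sick mice, against 0.405, 0.118, 0.0867 and 0.196 CPM in wild-type mice (log2 fold change 5.88 ± 0.92, adjusted p = 1.98e-04). It encodes a hyaluronan-associated inhibitor. Hp, of haptoglobin, was at 3.40, 1.65, 1.21 and 6.85 CPM in wild-type and 18.0, 33.9, 53.6 and 437 CPM in sick mice (log2 fold change 5.35 ± 1.01, adjusted p = 7.99e-04). The groups were separate in all 3, and sick mouse 4 was the highest in each, as it was for the adipose markers given with the lipid genes. In the acute phase list, the fold change moved by over 1.5-fold, to the log2 value given, for Serpina3n (4.99 without sick mouse 4 and 6.32 without wild-type mouse 4), Itih4 (5.18 in limma-voom and 5.06 without sick mouse 4) and Hp (4.52 in limma-voom, 3.41 without sick mouse 4 and 6.01 without wild-type mouse 4).

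In the coagulation list 15 of 20 tested genes rose and 3 fell, at a median log2 fold change of 1.53. F3, tissue factor, which starts clotting, was at 22.7, 24.8, 24.3 and 15.1 CPM in wild-type and 75.7, 45.7, 39.6 and 49.2 CPM in sick mice (log2 fold change 1.28 ± 0.25, adjusted p = 0.00115). Proc, which encodes the anticoagulant protein C, was at 154, 259, 143 and 190.3 CPM in wild-type and 7.70, 15.8, 17.6 and 26.0 CPM in sick mice (log2 fold change -3.48 ± 0.33, adjusted p = 6.45e-06). The sick mice lay above all wild-type mice in F3 and below them in Proc.

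The proximal tubule factor Hnf4a fell and the distal epithelial factor Ehf rose. In the nuclear receptor list 6 of 32 tested genes rose and 13 fell (12 and 7 by library totals), at a median log2 fold change of -0.62. Hnf4a (ENSMUSG00000017950, chromosome 2 from 163506808 to 163572910 of GRCm38, forward strand), which drives proximal tubule maturation, was at 1011, 802, 1173 and 1515 CPM in wild-type and 283, 454, 441 and 444 CPM in sick mice (log2 fold change -1.47 ± 0.23, adjusted p = 2.12e-04). Nr1h4, the bile acid receptor FXR, was at 131 to 210.3 CPM in wild-type and 49.4 to 105 CPM in sick mice (log2 fold change -1.21 ± 0.31, adjusted p = 0.00601). Both were lower in every sick mouse. Among segment factors 11 of 29 tested genes rose and 7 fell (13 and 2 by library totals), at a median log2 fold change of 0.07. The counts were 10 and 4 without sick mouse 4. Ehf, an epithelial Ets factor, was at 18.2, 9.73, 15.5 and 18.5 CPM in wild-type and 62.9, 64.3, 72.2 and 44.9 CPM in sick mice (log2 fold change 1.98 ± 0.25, adjusted p = 3.63e-05), and Tfap2b, a distal nephron factor, at 21.1 to 39.6 CPM in wild-type and 17.6 to 40.5 CPM in sick mice (log2 fold change 0.04 ± 0.27, adjusted p = 0.916). The call on Nr1h4 was lost with library totals alone (-0.63, adjusted p = 0.0571).

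Genes active in the embryonic nephron leaned upward: 16 of 26 tested genes rose and 4 fell, at a median log2 fold change of 1.19. Sox9 stood at 24.5, 15.2, 9.59 and 17.6 CPM in sick mice, against 0.971, 1.36, 1.30 and 1.63 CPM in wild-type mice (log2 fold change 3.66 ± 0.30, adjusted p = 2.84e-06). It encodes a factor of repairing tubule cells. Pax2 rose less, from 18.4 ± 5.24 to 28.7 ± 7.16 CPM (SD, n = 4 each) (log2 fold change 0.64 ± 0.23, adjusted p = 0.0326). Lhx1, another factor of the early nephron, was at 18.5, 11.3, 23.3 and 19.4 CPM in wild-type and 5.76, 7.34, 5.30 and 7.35 CPM in sick mice (log2 fold change -1.49 ± 0.23, adjusted p = 1.78e-04). Sox9 and Lhx1 each separated the groups, in opposite directions. In the retinoid list 7 of 17 tested genes rose and 2 fell (11 and 0 by library totals), at a median log2 fold change of 1.05. Aldh1a2, which makes retinoic acid, was at 3.64, 4.83, 1.73 and 3.13 CPM in wild-type and 64.9, 25.0, 40.1 and 78.9 CPM in sick mice (log2 fold change 3.95 ± 0.39, adjusted p = 8.01e-06). In the clock list 2 of 21 tested genes rose and 5 fell (9 and 2 by library totals), at a median log2 fold change of -0.17 (0.43 by library totals). The counts were 2 and 8 without wild-type mouse 2, 4 and 4 without wild-type mouse 4, 2 and 8 without wild-type mouse 2 and sick mouse 3 and 2 and 8 in the DESeq2 test. The output factor Dbp was at 69.0 to 105 CPM in wild-type and 10.9 to 37.8 CPM in sick mice (log2 fold change -1.80 ± 0.54, adjusted p = 0.0140), with the hour of dissection unstated in the labels. The call on Pax2 was lost in the 8 libraries alone, without sick mouse 1, without sick mouse 2, without wild-type mouse 2, without wild-type mouse 4 and without wild-type mouse 2 and sick mouse 3, with an adjusted p of up to 0.113. The call on Dbp was lost with library totals alone (-1.22, adjusted p = 0.0554).

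Immediate early genes respond to stimulation within minutes and many encode parts of AP-1, a dimer of Fos and Jun proteins. In their list 18 of 23 tested genes rose and 0 fell, at a median log2 fold change of 1.48. Fos was at 0.728, 0.236, 0.607 and 3.85 CPM in wild-type and 8.43, 12.5, 12.6 and 11.3 CPM in sick mice (log2 fold change 3.02 ± 0.67, adjusted p = 0.00233). Jun stood at 86.8, 86.0, 74.1 and 73.1 CPM in sick mice, against 24.2, 26.4, 23.1 and 43.8 CPM in wild-type mice (log2 fold change 1.45 ± 0.23, adjusted p = 2.10e-04). Egr2, a zinc finger factor, was at 0.162, 0.472, 0 and 2.67 CPM in wild-type and 27.9, 8.20, 10.6 and 19.2 CPM in sick mice (log2 fold change 4.24 ± 0.78, adjusted p = 6.49e-04). Wild-type mouse 4 was the highest of its group in all 3, below every sick mouse. In immediate early genes, the fold change moved by over 1.5-fold, to the log2 value given, for Fos (3.71 in limma-voom and 4.44 without wild-type mouse 4) and Egr2 (5.36 in limma-voom and 6.07 without wild-type mouse 4).

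The AP-1 motif TGANTCA, searched on both strands in the 250 bases before the annotated start, was in 9.35% of 1080 promoters of genes that rose at least 4-fold, in 4.57% of 503 of genes that fell at least 4-fold and in 4.78% of 14280 of all genes tested. Over all 32851 promoters, with those of genes not tested, the share was 6.75%. These shares are descriptions, and a match is not a site. The promoters come from RefSeq (GRCm38.p6), some genes have several, and 858 of the 1240 genes that rose so far matched. Of the 56 genes named here that rose so far, 43 have a matched promoter. Those of Cldn4, Igfbp2, Mt2 and Sprr1a are among the ones that hold the motif, and this list may not be complete. The windows of the 3 with the largest rises among these 4 show it in capitals with the bases around it, 5' to 3' on the strand of the gene. The Cldn4 window is chr5:134947061-134947117 on the reverse strand and that of Igfbp2 chr1:72825323-72825379 on the forward strand. That of Sprr1a is chr3:92485966-92486022 on the reverse strand. The motif starts 158, 39 and 116 bases before the RefSeq start. The promoters of Cldn4 and Sprr1a hold 2 matches each in the 250 bases, and only the match nearest the start is shown. Gene spans given in the text come from GENCODE, whose Igfbp2 starts at 72824503, so the Igfbp2 window lies inside that span.
Cldn4: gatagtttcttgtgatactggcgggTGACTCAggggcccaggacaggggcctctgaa
Igfbp2: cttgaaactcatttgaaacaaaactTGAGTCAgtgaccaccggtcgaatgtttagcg
Sprr1a: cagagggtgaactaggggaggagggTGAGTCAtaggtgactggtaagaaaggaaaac

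Of these genes Igfbp2 (ENSMUSG00000039323, chromosome 1 from 72824503 to 72852474 of GRCm38, forward strand), an IGF-binding protein, was at 0.324, 0.472, 0.520 and 0.0652 CPM in wild-type and 33.4, 21.2, 7.75 and 34.9 CPM in sick mice (log2 fold change 6.13 ± 0.67, adjusted p = 1.64e-05). Sprr1a stood at 12.5, 32.2, 62.2 and 115 CPM in sick mice, against 0.405, 1.53, 0.260 and 0.783 CPM in wild-type mice (log2 fold change 6.12 ± 1.21, adjusted p = 0.00108). It encodes a cornified envelope protein of squamous epithelia. Both were higher in every sick mouse, with sick mouse 4 the highest. For these promoters, the fold change moved by over 1.5-fold, to the log2 value given, for Sprr1a (5.49 without sick mouse 4 and 6.75 without wild-type mouse 2).

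Cell division genes had a median above 0, but few passed. In their list 5 of 28 tested genes rose and 1 fell (19 and 0 by library totals), at a median log2 fold change of 0.87. The counts were 2 and 1 without sick mouse 1, 3 and 1 without sick mouse 4, 3 and 1 without wild-type mouse 3, 3 and 1 without wild-type mouse 4, 3 and 1 with DESeq2 size factors and 8 and 1 with upper-quartile scaling. Mki67, a marker of cycling cells, was at 13.3, 7.01, 7.11 and 9.33 CPM in wild-type and 25.9, 10.2, 10.9 and 23.2 CPM in sick mice (log2 fold change 0.94 ± 0.44, adjusted p = 0.0960). Top2a stood at 20.1, 8.07, 9.21 and 14.0 CPM in sick mice, against 9.38, 6.25, 5.11 and 4.96 CPM in wild-type mice (log2 fold change 1.002 ± 0.41, adjusted p = 0.0567), topoisomerase 2 alpha. Sick mice 1 and 4 lay above all wild-type mice in both genes, and sick mice 2 and 3 close to or within the wild-type range. Kif23, a motor of cytokinesis, was at 3.07, 2.42, 2.51 and 1.89 CPM in wild-type and 6.93, 8.90, 7.06 and 7.30 CPM in sick mice (log2 fold change 1.61 ± 0.28, adjusted p = 4.04e-04). CCAAT, on either strand, stood in 84.0% of 25 promoters of the list, against 34.6% of those of genes tested. In the DNA replication list 13 of 29 tested genes rose and 2 fell (21 and 1 by library totals), at a median log2 fold change of 0.49. The counts were 8 and 1 without sick mouse 1. Mcm10 was at 9.30, 17.9, 9.62 and 11.3 CPM in wild-type and 2.80, 1.46, 3.38 and 2.11 CPM in sick mice (log2 fold change -2.33 ± 0.33, adjusted p = 1.09e-04), a replication initiation factor, and this fall went against the other called members but for 1. Mki67 passed with library totals alone (1.54, adjusted p = 0.0121). Top2a passed with upper-quartile scaling (1.13, adjusted p = 0.0368), with library totals alone (1.60, adjusted p = 0.00643), in the 8 libraries alone (1.01, adjusted p = 0.0303), in the DESeq2 test (0.98, adjusted p = 0.0343), without sick mouse 2 (1.17, adjusted p = 0.0411), without sick mouse 3 (1.125, adjusted p = 0.0480) and without wild-type mouse 1 (1.23, adjusted p = 0.0398).

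The CDK inhibitor genes Cdkn1a and Cdkn2b rose and the cyclin gene Ccnd1 fell. Over cyclins and CDK inhibitors, 6 of 21 tested genes rose and 1 fell (17 and 1 by library totals), at a median log2 fold change of 0.33. The counts were 9 and 3 without wild-type mouse 2 and sick mouse 3 and 6 and 3 in the DESeq2 test. Cdkn1a, the gene of p21, was at 5.18, 13.2, 4.07 and 18.7 CPM in wild-type and 62.6, 131, 86.6 and 87.7 CPM in sick mice (log2 fold change 3.14 ± 0.62, adjusted p = 0.00103). Cdkn2b stood at 14.8, 6.04, 7.75 and 6.78 CPM in sick mice, against 0.324, 1.53, 0.433 and 1.37 CPM in wild-type mice (log2 fold change 3.21 ± 0.49, adjusted p = 1.65e-04). It is the gene of p15. Ccnd1 was at 391, 343, 412 and 225 CPM in wild-type and 128, 68.5, 105 and 107 CPM in sick mice (log2 fold change -1.75 ± 0.34, adjusted p = 9.95e-04). It encodes the cyclin that starts the cycle in many cells. None of the 3 overlapped between the groups.

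In the citrate cycle, the mitochondrial pathway that feeds respiration, 0 of 23 tested genes rose and 23 fell, at a median log2 fold change of -1.40. Mpc1 stood at 20.8, 29.0, 38.4 and 26.6 CPM in sick mice, against 99.9, 111, 95.4 and 104 CPM in wild-type mice (log2 fold change -1.84 ± 0.16, adjusted p = 4.36e-06). It encodes the pyruvate carrier of the inner membrane. The sick mice were lower and close to one another, with mouse 3 the highest of them. In the genes of mitochondrial biogenesis and dynamics 0 of 28 tested genes rose and 23 fell (3 and 10 by library totals), at a median log2 fold change of -0.90. Tfam, the factor that packs mitochondrial DNA, was at 57.8 to 75.5 CPM in wild-type and 27.6 to 39.1 CPM in sick mice (log2 fold change -1.05 ± 0.13, adjusted p = 3.73e-05), and Ppargc1a, the co-activator of biogenesis, at 53.7 to 85.1 CPM in wild-type and 30.4 to 49.7 CPM in sick mice (log2 fold change -0.89 ± 0.17, adjusted p = 9.10e-04). The call on Ppargc1a was lost with library totals alone (-0.30, adjusted p = 0.148).

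In branched-chain amino acid breakdown 0 of 20 tested genes rose and 20 fell, at a median log2 fold change of -1.74. Ivd, of leucine breakdown, was at 512, 507, 462 and 577 CPM in wild-type and 71.4, 96.6, 132 and 107 CPM in sick mice (log2 fold change -2.34 ± 0.18, adjusted p = 2.12e-06). The fall was shared by all 4 sick mice. In tyrosine and tryptophan breakdown 3 of 17 tested genes rose and 12 fell, at a median log2 fold change of -2.07. Ido2 stood at 0.487, 0.697, 0.921 and 1.13 CPM in sick mice, against 20.8, 22.5, 21.2 and 15.3 CPM in wild-type mice (log2 fold change -4.65 ± 0.26, adjusted p = 4.22e-07). It encodes an indoleamine dioxygenase. The groups were widely apart. In one-carbon, serine and glycine metabolism 4 of 27 tested genes rose and 17 fell (7 and 13 by library totals), at a median log2 fold change of -1.09. Cbs, which makes cystathionine, was at 349, 534, 365 and 358 CPM in wild-type and 39.1, 52.8, 75.4 and 44.3 CPM in sick mice (log2 fold change -2.93 ± 0.22, adjusted p = 1.83e-06). Phgdh, which starts serine synthesis, rose, at 7.04, 14.2, 7.80 and 5.41 CPM in wild-type and 24.6, 16.5, 17.7 and 13.5 CPM in sick mice (log2 fold change 1.06 ± 0.28, adjusted p = 0.00667), with sick mouse 4 just below wild-type mouse 2.

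Glycolytic genes split. In their list 5 of 24 tested genes rose and 10 fell (12 and 5 by library totals), at a median log2 fold change of -0.19 (0.40 by library totals). Hk2, the inducible hexokinase, was at 0.809, 0.472, 0.867 and 1.76 CPM in wild-type and 19.3, 13.3, 7.75 and 21.0 CPM in sick mice (log2 fold change 3.96 ± 0.40, adjusted p = 9.69e-06). Khk, ketohexokinase of fructose use, was at 555, 1233, 512 and 592 CPM in wild-type and 67.6, 78.1, 256 and 106 CPM in sick mice (log2 fold change -2.51 ± 0.42, adjusted p = 3.11e-04). The 2 enzymes that phosphorylate hexoses in different cells thus separated the groups in opposite directions. In the pentose phosphate pathway 2 of 8 tested genes rose and 2 fell (4 and 0 by library totals), at a median log2 fold change of 0.00. Pgd, of its oxidative arm, rose from 97.6 ± 10.4 to 171 ± 17.7 CPM (SD, n = 4 each) (log2 fold change 0.81 ± 0.12, adjusted p = 1.57e-04). In sugar metabolism, the fold change moved by over 1.5-fold, to the log2 value given, for Khk (-3.11 without sick mouse 3).

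Peroxisomes break down long and branched fatty acids and D-amino acids. In their list 2 of 36 tested genes rose and 29 fell (4 and 18 by library totals), at a median log2 fold change of -1.01. Cat was at 1136, 1078, 1246 and 1245 CPM in wild-type and 278, 370.4, 467 and 400.2 CPM in sick mice (log2 fold change -1.63 ± 0.17, adjusted p = 1.03e-05), catalase. Amacr stood at 24.8, 24.4, 59.8 and 41.6 CPM in sick mice, against 373, 556, 288 and 485 CPM in wild-type mice (log2 fold change -3.50 ± 0.31, adjusted p = 4.05e-06). It encodes a racemase of branched fatty acids. Both were lower in all sick mice. Xdh, xanthine dehydrogenase of purine breakdown, was at 16.9, 15.5, 23.7 and 27.5 CPM in wild-type and 90.3, 114, 65.7 and 105 CPM in sick mice (log2 fold change 2.17 ± 0.32, adjusted p = 1.24e-04) and moved against the list. In the purine and pyrimidine list 8 of 31 tested genes rose and 13 fell (12 and 4 by library totals), at a median log2 fold change of -0.44 (0.14 by library totals). Entpd1, the ectonucleotidase CD39 of immune and endothelial cells, was at 8.72 to 15.5 CPM in wild-type and 34.0 to 56.4 CPM in sick mice (log2 fold change 1.83 ± 0.23, adjusted p = 3.63e-05).

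Lipid synthesis and droplet genes varied between sick mice. In their list 10 of 31 tested genes rose and 6 fell (17 and 4 by library totals), at a median log2 fold change of 0.15. Plin4 stood at 11.8, 72.1, 50.5 and 161 CPM in sick mice, against 4.05, 1.95, 4.68 and 8.48 CPM in wild-type mice (log2 fold change 3.95 ± 0.67, adjusted p = 3.82e-04). It encodes a droplet coat protein of adipocytes. Cd36 was at 751, 1200.5, 878 and 1387 CPM in wild-type and 28.1, 92.5, 141 and 276 CPM in sick mice (log2 fold change -2.97 ± 0.51, adjusted p = 4.00e-04). It encodes the fatty acid receptor. The groups did not overlap, and sick mouse 4 was the highest and sick mouse 1 the lowest of the sick mice in both. Adipose markers followed this order: Adipoq, of adiponectin, was at 4.13, 0.648, 2.17 and 6.98 CPM in wild-type and 2.11, 37.1, 30.4 and 123 CPM in sick mice (log2 fold change 3.79 ± 0.96, adjusted p = 0.00529), with sick mouse 1 inside the wild-type range. The adipose list, with 6 of 6 tested genes higher (1 of 6 in limma-voom), none of them apart between the groups and none without counts, summed to 61.6 to 127 CPM in wild-type and 48.7 to 1655 CPM in sick mice, and its part in the droplet and acute phase genes was not tested. In the sphingolipid list 5 of 23 tested genes rose and 11 fell (10 and 5 by library totals), at a median log2 fold change of -0.42 (0.17 by library totals). B4galnt1 was at 6.55, 9.96, 6.5005 and 6.20 CPM in wild-type and 53.5, 48.7, 54.3 and 42.1 CPM in sick mice (log2 fold change 2.76 ± 0.21, adjusted p = 2.09e-06), which extends sialic acid-bearing gangliosides, and the groups were separate. Ugt8a, which makes galactosylceramide, was at 165, 131, 134 and 368 CPM in wild-type and 14.5, 24.5, 47.7 and 56.3 CPM in sick mice (log2 fold change -2.48 ± 0.44, adjusted p = 5.15e-04). Among lipid genes, the fold change moved by over 1.5-fold, to the log2 value given, for Plin4 (3.23 without sick mouse 4), Cd36 (-3.6 without sick mouse 4) and Adipoq (2.73 without sick mouse 4 and 4.40 without wild-type mouse 4). The call on Adipoq was lost in limma-voom (3.17, adjusted p = 0.0815).

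Degradation and secretion genes were mixed. In the lysosome list 12 of 38 tested genes rose and 13 fell (22 and 5 by library totals), at a median log2 fold change of -0.16 (0.44 by library totals). Ctsk, a collagen-cleaving cathepsin, was at 3.96, 7.43, 4.25 and 3.72 CPM in wild-type and 50.6, 30.1, 33.9 and 31.3 CPM in sick mice (log2 fold change 2.90 ± 0.27, adjusted p = 5.16e-06). Glb1 stood at 34.9, 45.8, 44.4 and 37.6 CPM in sick mice, against 128, 159, 114 and 184 CPM in wild-type mice (log2 fold change -1.85 ± 0.21, adjusted p = 1.87e-05), lysosomal beta-galactosidase. These separated the groups in opposite directions. In the autophagy list 3 of 29 tested genes rose and 15 fell (10 and 4 by library totals), at a median log2 fold change of -0.50 (0.09 by library totals). Gabarapl1, of the autophagosome membrane, was at 659 to 897 CPM in wild-type and 249.9 to 414 CPM in sick mice (log2 fold change -1.31 ± 0.25, adjusted p = 9.24e-04). In the protein export and glycosylation list 0 of 32 tested genes rose and 16 fell (10 and 1 by library totals), at a median log2 fold change of -0.37 (0.23 by library totals). In the chaperone list 4 of 30 tested genes rose and 13 fell (9 and 3 by library totals), at a median log2 fold change of -0.73. Hspb8, a small heat shock protein, was at 3.40, 4.66, 4.42 and 7.83 CPM in wild-type and 31.3, 35.7, 35.9 and 36.1 CPM in sick mice (log2 fold change 2.77 ± 0.24, adjusted p = 3.87e-06). Hsph1 was at 172, 245, 167 and 535 CPM in wild-type and 71.6, 57.8, 85.3 and 87.2 CPM in sick mice (log2 fold change -1.89 ± 0.35, adjusted p = 7.04e-04), a nucleotide exchange factor for Hsp70, with wild-type mouse 4 well above the rest of its group.

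In the hypoxia and angiogenesis list 5 of 22 tested genes rose and 7 fell (12 and 2 by library totals), at a median log2 fold change of 0.01. The counts were 3 and 5 without sick mouse 1, 2 and 6 without sick mouse 2, 3 and 7 without sick mouse 4, 3 and 7 without wild-type mouse 1, 2 and 5 without wild-type mouse 2 and 3 and 7 without wild-type mouse 4. Vegfa stood at 53.8, 65.7, 58.1 and 90.2 CPM in sick mice, against 168, 139, 227 and 188 CPM in wild-type mice (log2 fold change -1.43 ± 0.19, adjusted p = 6.60e-05). It encodes the main endothelial growth factor of podocytes and tubules. Car9, a carbonic anhydrase known as a hypoxia target, was at 14.7, 7.19, 9.71 and 8.87 CPM in wild-type and 1.66, 1.49, 3.15 and 1.85 CPM in sick mice (log2 fold change -2.34 ± 0.33, adjusted p = 9.90e-05). Both were lower in all sick mice, as was the receptor gene Kdr.

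Iron and zinc genes changed in both directions. In the iron and haem list 8 of 33 tested genes rose and 13 fell (13 and 5 by library totals), at a median log2 fold change of -0.21 (0.40 by library totals). Tfrc, the transferrin receptor, was at 157, 135, 170.4 and 139 CPM in wild-type and 22.1, 18.0, 40.4 and 24.2 CPM in sick mice (log2 fold change -2.53 ± 0.22, adjusted p = 4.29e-06), far apart between the groups. Hmox1, haem oxygenase 1, was at 23.9, 49.6, 37.8 and 97.9 CPM in wild-type and 84.6, 62.1, 41.5 and 73.7 CPM in sick mice (log2 fold change 0.32 ± 0.43, adjusted p = 0.561), with overlapping groups. In the zinc, copper and metallothionein list 4 of 16 tested genes rose and 7 fell (5 and 5 by library totals), at a median log2 fold change of -0.34 (0.26 by library totals). The 2 metallothionein genes, whose small cysteine-rich products bind zinc and copper, were higher. Mt1 was at 32.4, 77.9, 31.0 and 51.0 CPM in wild-type and 129, 322, 291 and 236 CPM in sick mice (log2 fold change 2.34 ± 0.49, adjusted p = 0.00157). Mt2 stood at 176, 283, 342 and 265 CPM in sick mice, against 12.1, 31.4, 16.1 and 50.2 CPM in wild-type mice (log2 fold change 3.27 ± 0.82, adjusted p = 0.00513). All sick mice exceeded all wild-type mice in both, and sick mouse 1 was the lowest of its group. Slc30a2, a zinc exporter into vesicles, was at 153, 199, 172 and 189 CPM in wild-type and 9.24, 28.8, 36.3 and 44.8 CPM in sick mice (log2 fold change -2.58 ± 0.38, adjusted p = 1.22e-04).

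Metallothionein promoters are a textbook case of metal response elements, with the core TGCGCNC or TGCACNC that the zinc-sensing factor MTF-1 binds. The 250 bases before the RefSeq starts of Mt1 (chr8:94178839-94179088, GRCm38.p6, forward strand) and Mt2 (chr8:94172368-94172617, forward strand) are shown because both genes rose together, with matches to either core on either strand in capitals. The window of Mt1 held 1 match and that of Mt2 3. Bases further upstream or after these starts were not searched, so the matches of each whole promoter are not counted. Of promoters of genes tested, 20.1% held TGCGCNC and 10.7% held TGCACNC, so single matches are common.
Mt1: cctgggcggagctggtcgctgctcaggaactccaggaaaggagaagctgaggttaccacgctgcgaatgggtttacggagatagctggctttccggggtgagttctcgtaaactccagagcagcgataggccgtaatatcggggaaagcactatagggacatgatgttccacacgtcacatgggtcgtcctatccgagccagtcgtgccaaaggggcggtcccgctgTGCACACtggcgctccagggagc
Mt2: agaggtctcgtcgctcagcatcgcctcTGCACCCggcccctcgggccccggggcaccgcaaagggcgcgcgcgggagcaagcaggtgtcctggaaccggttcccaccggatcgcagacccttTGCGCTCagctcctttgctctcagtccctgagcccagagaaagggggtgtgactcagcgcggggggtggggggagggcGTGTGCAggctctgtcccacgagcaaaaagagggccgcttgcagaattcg

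Mucins and other heavily sialylated surface proteins are of interest because Gne makes the precursor of sialic acid. In their list 12 of 18 tested genes rose and 2 fell (14 and 0 by library totals), at a median log2 fold change of 1.5. Muc4 (ENSMUSG00000079620, chromosome 16 from 32735886 to 32782391 of GRCm38, forward strand), a membrane mucin, was at 0.566, 0.531, 0.780 and 0.326 CPM in wild-type and 36.9, 39.6, 10.6 and 32.7 CPM in sick mice (log2 fold change 5.78 ± 0.47, adjusted p = 2.90e-06). Muc1 stood at 60.3, 93.2, 98.5 and 56.3 CPM in sick mice, against 10.1, 8.90, 10.2 and 5.28 CPM in wild-type mice (log2 fold change 3.16 ± 0.27, adjusted p = 3.74e-06). It encodes the membrane mucin of distal tubules. The groups were separate in both genes. Podxl, which encodes podocalyxin of the podocyte and endothelial surface, was at 251, 157, 271 and 161 CPM in wild-type and 196, 185, 154 and 253 CPM in sick mice (log2 fold change -0.09 ± 0.21, adjusted p = 0.736), fully overlapping. Among the growth factor binding and regeneration factors 24 of 37 tested genes rose and 4 fell, at a median log2 fold change of 1.47. Grem1 (ENSMUSG00000074934, chromosome 2 from 113746164 to 113758646 of GRCm38, reverse strand), an antagonist of bone morphogenetic proteins, was at 0.890, 1.47, 0.433 and 1.11 CPM in wild-type and 61.9, 20.02, 61.0 and 43.6 CPM in sick mice (log2 fold change 5.52 ± 0.42, adjusted p = 1.92e-06). Igfbp3 was at 341, 386, 377 and 381 CPM in wild-type and 86.0, 125, 86.3 and 125 CPM in sick mice (log2 fold change -1.82 ± 0.16, adjusted p = 3.90e-06), the main IGF carrier of plasma, opposite to Igfbp2.

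Families sharing the start of their symbol gave the widest view. Of solute carriers (Slc), 62 of 301 rose and 145 fell (105 and 92 by library totals), with a median log2 fold change of -0.47, or 0.13 by library totals. The part of transcript length in the family counts was not tested. Among mitochondrial ribosomal proteins (Mrpl and Mrps), 0 of 76 rose and 68 fell (3 and 17 by library totals), and among complex I genes (Nduf), 0 of 45 rose and 44 fell (0 and 28 by library totals). Cytosolic ribosomal proteins were mostly not called, since 4 of 50 rose and 2 fell (43 and 1 by library totals) among Rpl and 4 of 36 rose and 0 fell (32 and 0 by library totals) among Rps genes. Proteasome subunits (Psm) leaned down with the main scaling, 4 of 47 rose and 29 fell (10 and 0 by library totals). Proton pump subunits (Atp6v) leaned down, 1 of 21 rose and 14 fell (3 and 6 by library totals), as did histone genes (Hist), 0 of 14 rose and 9 fell. Glucuronosyltransferases (Ugt) fell for the most part, 2 of 16 rose and 11 fell, while Ugt1a2 rose, at 4.61, 0.766, 0.953 and 1.63 CPM in wild-type and 46.1, 36.8, 201 and 18.0 CPM in sick mice (log2 fold change 5.26 ± 0.83, adjusted p = 2.24e-04), although exons shared with other Ugt1a genes make its counts uncertain. Families that leaned up were serpins, 18 of 27 rose and 2 fell, integrins, 19 of 29 rose and 2 fell (23 and 0 by library totals), Adam and Adamts proteases, 21 of 28 rose and 0 fell, Hox genes, 16 of 32 rose and 3 fell (29 and 1 by library totals), and Klf factors, 9 of 15 rose and 0 fell. Potassium channels (Kcn) went both ways, 24 of 51 rose and 13 fell (27 and 5 by library totals). In these families, the fold change moved by over 1.5-fold, to the log2 value given, for Ugt1a2 (4.09 without sick mouse 3, 6.06 without wild-type mouse 1 and 3.81 without wild-type mouse 2 and sick mouse 3).

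**Figure D5:**
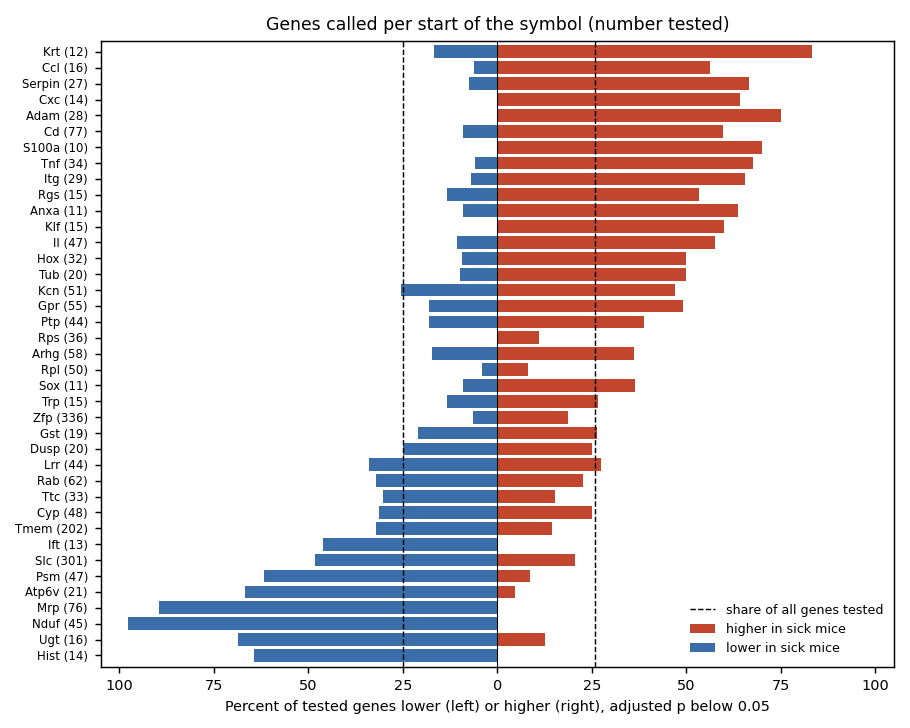
Percent of tested genes lower (blue, left) or higher (red, right) in sick than in wild-type mice at an adjusted p below 0.05, for symbol families of 10 or more tested genes in order of their median log2 fold change, with the number tested in parentheses. Dashed lines mark the 25.0% and 25.9% of all genes. Nduf and Mrp genes have the highest shares lower, 97.8% and 89.5%, and Krt genes the highest share higher, 83.3%.

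Some of the largest falls among genes of at least 50 CPM in the higher group were in secreted and brush border proteins. Dnase1 was at 567, 1679, 1077 and 468 CPM in wild-type and 10.4, 6.64, 31.2 and 12.1 CPM in sick mice (log2 fold change -5.99 ± 0.57, adjusted p = 6.79e-06). It encodes the secreted nuclease. Pzp stood at 2.84, 5.18, 4.76 and 12.9 CPM in sick mice, against 316, 228, 395 and 502 CPM in wild-type mice (log2 fold change -5.81 ± 0.45, adjusted p = 2.36e-06). It encodes a broad protease inhibitor. Mep1b, the meprin beta subunit of the brush border, was at 212, 368, 167 and 185 CPM in wild-type and 0.933, 2.49, 11.1 and 4.98 CPM in sick mice (log2 fold change -5.64 ± 0.70, adjusted p = 3.65e-05). The highest sick mouse was far below the lowest wild-type mouse in each. On the side of the rises, Ltbp2, a microfibril protein, was at 1.94, 2.12, 1.30 and 3.91 CPM in wild-type and 285, 44.8, 44.2 and 136 CPM in sick mice (log2 fold change 5.76 ± 0.69, adjusted p = 2.83e-05), and Apoe, the lipoprotein ligand, at 111, 169.7, 89.8 and 131 CPM in wild-type and 1937, 1498, 1742 and 1067 CPM in sick mice (log2 fold change 3.64 ± 0.24, adjusted p = 1.19e-06). Sick mice 1 and 4 were the highest for Ltbp2, and the groups did not overlap in any of these 5 genes. Among these abundant genes, the fold change moved by over 1.5-fold, to the log2 value given, for Dnase1 (-6.62 without sick mouse 3), Pzp (-6.405 without sick mouse 4), Mep1b (-6.403 without sick mouse 3) and Ltbp2 (4.99 without sick mouse 1).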

How the data were processed

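Per the labels' protocols, kidney RNA came from the miRvana kit with a DNase step, and libraries were of the Trueseq kind. The authors deposited raw counts per Ensembl gene for 12 libraries. Trim Galore 0.3.7, TopHat2 2.0.11, Cufflinks, DESeq2 1.12.4 and the build GRCm38 are named in the submitters' processing notes. No source used here gives the counting program, annotation release or strand setting, so reads of overlapping, antisense or near-identical genes could be split. The 12 deposited columns of normalized values per sample were not used.

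Counts were tested with edgeR 4.0.16 in R 4.3.3. All 12 libraries entered 1 fit with a mean per group, TMM scaling, the filterByExpr filter by group and the quasi-likelihood test of sick against wild-type, with Benjamini-Hochberg adjustment over 15589 genes and a threshold of 0.05. CPM use the TMM-scaled library size. On simulated counts for 14149 genes the test found 52 of 100 genes changed by 1 and 100 of 100 changed by 2 on the log2 scale, with 5 false calls. The simulation left out genes with low counts, gave all genes the same spread and changed few of them. It had no effect of transcript length, so these are not the error rates of the comparison itself. Nothing says that mice of a group were processed separately, so p-values measure the spread between these samples.

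The members and the 71 gene lists were chosen with earlier results of these data known. From each list the text names its core genes and up to 2 of the largest rises and 2 of the largest falls among called genes of at least 1 CPM without overlap. It also names some of the largest changes among genes of at least 50 CPM. Some genes that this rule takes are not reported here. The macrophage and T cell markers were chosen after seeing the data. Alternatives covered scaling, filters, the libraries in the fit, a replicate block, DESeq2 1.42.0, limma-voom (limma 3.58.1), stricter thresholds and leaving out each mouse. Promoters came from RefSeq (GRCm38.p6) and gene positions from GENCODE. A motif of the factor HNF1, planned for genes that fell at least 4-fold, was not searched.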

Additional observations from a re-analysis of the deposited data

Results flagged for a closer look

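In 26 of 340 combinations of a gene named above and a group of 4 mice, 1 mouse stood apart from the other 3 by more than Dixon's 95% critical value, and chance alone marks about 1 in 20. The values are CPM of that mouse, with the range of the other 3 of its group. Wild-type mouse 2 was the one for Bst1 at 9.37 against 2.60 to 3.40, Krt5 at 0.825 against 0.0652 to 0.173, Tjp1 at 31.7 against 74.2 to 81.4, Slc9a3 at 15.9 against 78.0 to 83.0 and Acsl4 at 37.0 against 51.1 to 53.8. The same mouse stood apart for Gss at 695 against 349 to 368, Khk at 1233 against 512 to 592, Cbs at 534 against 349 to 365, B4galnt1 at 9.96 against 6.20 to 6.55 and Ctsk at 7.43 against 3.72 to 4.25. Tjp1, Slc9a3 and Acsl4 were low in wild-type mouse 2, and the other genes of this mouse were high. Wild-type mouse 4 was the one for Slc5a3 at 318 against 97.7 to 126, Ugt8a at 368 against 131 to 165, Fos at 3.85 against 0.236 to 0.728 and Jun at 43.8 against 23.1 to 26.4. Wild-type mouse 3 was the one for Axin2 at 1.56 against 0.943 to 0.979. Sick mouse 4 was the one for Upk3a at 38.2 against 5.88 to 9.82, Krt5 at 44.9 against 4.68 to 7.29, Hp at 437 against 18.0 to 53.6, Igj at 67.5 against 1.69 to 9.41 and Slco1a1 at 50.7 against 1.87 to 6.17. Sick mouse 3 was the one for Cdh5 at 28.7 against 52.6 to 53.1, Yap1 at 77.0 against 91.7 to 93.0 and Ugt1a2 at 201 against 18.0 to 46.1. Sick mouse 1 was the one for Hnf4a at 283 against 441 to 454 and Hspb8 at 31.3 against 35.7 to 36.1. Sick mouse 2 was the one for Slc9a3 at 27.8 against 15.3 to 16.6.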

How the results depend on the processing

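With library totals alone 8420 genes rose and 1605 fell, and with a log2 fold change of at least 1 as well 2770 rose and 1923 fell. Under the other settings the counts stayed within 1.5 times the reported ones. Leaving out 1 mouse gave 3564 to 4266 genes higher and 3251 to 4110 lower. Of the 170 named genes, none that passed the test changed direction under any of these settings. Library totals alone ended 9 calls and added 13, and the DESeq2 test ended 0 and added 2. The cause of these changes was not tested. Among the 71 lists, 22 had a count moved by over 1.5-fold when 1 mouse was left out, and moves of 1 gene, such as from 1 to 0, are not given singly. Deviations of same-numbered sick and wild-type mice correlated at 0.224, -0.260, -0.251 and 0.187, and 2 of 4 sick mice correlated best with their own number. The largest correlation, 0.497, was between sick mouse 3 and wild-type mouse 2, the libraries low in long transcripts. Whether the replicate numbers pair the mice cannot be decided from these correlations. With the replicate block 3866 genes rose and 3614 fell, and it added 2 calls among the named genes, on Umod (-1.68) and Atp6v1b1 (-0.51). Changes below 1 on the log2 scale can be missed with 4 mice per group. Levels under 1 CPM rest on few counts.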

Other observations

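Lymphoid and dendritic cell genes beyond those above were few. In the immunoglobulin and plasma cell list 3 of 9 tested genes rose and 0 fell, at a median log2 fold change of 0.68. Igj, the joining chain of secreted antibodies, was at 5.66, 49.7, 8.84 and 100.99 CPM in wild-type and 9.41, 1.69, 8.98 and 67.5 CPM in sick mice (log2 fold change -0.92 ± 1.16, adjusted p = 0.533), with wide and overlapping groups. Sdc1 stood at 63.3, 55.6, 71.5 and 85.7 CPM in sick mice, against 11.7, 13.5, 12.05 and 9.85 CPM in wild-type mice (log2 fold change 2.55 ± 0.21, adjusted p = 3.17e-06), the gene of syndecan 1, a surface proteoglycan of plasma cells and of epithelia, and the groups were separate. Of mast cell, eosinophil and dendritic cell genes, 4 of 10 tested genes rose and 0 fell (9 and 0 by library totals), at a median log2 fold change of 0.89. Flt3, a receptor kinase of dendritic cells, was at 0.647, 0.884, 1.04 and 1.63 CPM in wild-type and 4.26, 1.73, 2.46 and 7.04 CPM in sick mice (log2 fold change 1.87 ± 0.45, adjusted p = 0.00409), and all sick mice were above the wild-type mice. Among abundant genes, Slco1a1, an organic anion carrier of the proximal tubule, was at 585, 873, 671 and 1135 CPM in wild-type and 1.87, 6.17, 2.46 and 50.7 CPM in sick mice (log2 fold change -5.74 ± 0.95, adjusted p = 3.04e-04), and Gpx3, the plasma glutathione peroxidase made by the kidney, at 16717, 22526, 17461 and 18422 CPM in wild-type and 4719.9, 6799, 10254 and 8266 CPM in sick mice (log2 fold change -1.32 ± 0.30, adjusted p = 0.00243). Both were lower in every sick mouse. Of these genes, the fold change moved by over 1.5-fold, to the log2 value given, for Slco1a1 (-6.98 in limma-voom and -7.83 without sick mouse 4).

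Other patterns are given as values. Relative to the wild-type mean, on the log2(CPM + 1) scale, the median of the immediate early list was -0.22, -0.13, -0.31 and 0.65 in wild-type mice 1 to 4 and -0.04, 0.20, 0.22 and 0.90 in healthy knock-in mice 1 to 4. The median of the chaperone list was -0.38, 0.21, -0.42 and 0.57 in the wild-type mice. The skeletal muscle list had medians of 4.45, 4.19, 4.43 and 4.88 in the healthy knock-in mice, against -0.12 to 0.93 in the sick mice. Those healthy libraries enter the comparison above through the scaling, the filter on low counts and the estimate of spread. In that comparison 7 of the 10 tested muscle genes rose and 2 fell (2 and 2 in limma-voom), at a median log2 fold change of 2.77. The sick mice lay above all wild-type mice in 1 gene and below them in 1. The muscle list summed to 39.5 to 90.9 CPM in wild-type and 2.03 to 17.5 CPM in sick mice. Of the adrenal list 2 genes were tested and 0 were called, and of the liver and pancreas list 3 were tested and 2 fell.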
